A study of Homo sapiens with 8 samples.

Results

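The transcriptional response of the myofibroblast line WPMY-1 to RWF, an extract of the plant Rauwolfia vomitoria that holds indole and beta-carboline alkaloids, was read from 4 of the 8 arrays of the study, chosen by their cell line label. RNA was taken after 24 h from WPMY-1 cells given RWF at 250 μg/ml (2 arrays) or vehicle (2 arrays), and the other 4 arrays hold the prostate epithelial line BPH-1 under the same treatments. WPMY-1 cells come from human prostate stroma, were immortalized with a viral large T antigen, and were grown in DMEM with serum and antibiotics, while BPH-1 cells were grown in RPMI1640. Each line was measured at 1 dose and 1 time, and separate cultures are not stated in the labels for the 2 arrays of a group, so p-values measure the spread between arrays, which may be technical. Affymetrix Human Transcriptome Arrays gave a log2 expression value per transcript cluster, a set of probes that reads 1 gene or locus, for 67528 clusters. Those annotated to a single symbol, with the brightest cluster kept for each symbol, left 22465 genes.

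Myofibroblasts are contractile stromal cells that lie between fibroblasts and smooth muscle. They secrete fibrillar collagen and other matrix, assemble actin, myosin light chain, transgelin and calponin into stress fibres, and send growth factors and chemokines to the epithelium beside them. Serum response factor, through CArG boxes and its actin-sensing cofactor MRTFA, drives many of their contractile genes, and sterol regulatory element-binding proteins, often with the CCAAT-binding factor NF-Y, drive the enzymes of cholesterol synthesis. In the prostate the stroma supplies androgen-dependent signals to the glands and carries the smooth muscle tone targeted in benign hyperplasia.

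The fibroblast markers COL1A1, COL1A2 and THY1 were among the brighter genes of both groups. COL1A1, a chain of type I collagen, read 9.26 and 9.36 in RWF-treated cells, against 9.93 and 9.92 in vehicle-treated cells (log2 values, replicates 1 and 2). COL1A2, the other chain, read 9.25 and 9.30 with RWF, against 10.04 and 9.78 with vehicle. THY1, a surface glycoprotein of fibroblasts, read 8.17 and 7.91 with RWF, against 8.38 and 8.42 with vehicle. Both collagen chains fell, by 0.61 (adjusted p = 0.0209) and 0.63 (adjusted p = 0.0307), and THY1 did not pass the test, at a difference of -0.35 (adjusted p = 0.224). Without RWF replicate 1, RWF replicate 2 or vehicle replicate 1 neither collagen call held, and the differences ran from -0.66 to -0.50. VIM, the mesenchymal intermediate filament vimentin, lay between 10.37 and 10.50 on all 4 arrays, and ACTA2, the smooth muscle actin by which myofibroblasts are usually recognised, lay lower, between 6.05 and 6.20.

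The markers that define other cell types were low. EPCAM and CDH1, which define epithelium, read between 4.44 and 4.66 on the 4 arrays, PTPRC, which defines leukocytes, between 2.43 and 2.44, and PECAM1, which defines endothelium, between 3.01 and 3.39. Without a detection call in the table, low log2 values such as these can be background. Of 20 measured epithelial markers, 16 had positive differences, with a median of 0.13 and a median level of 5.56 with RWF and 5.48 with vehicle, and none was called. The median levels of all genes were 5.72 and 5.65, so as a set the epithelial markers lay only slightly lower. Of 22 measured stromal markers 4 fell and none rose (COL1A1, COL1A2, COL6A3 and PRRX1), and 16 differences were below 0, with a median of -0.23. Endothelial (0 of 10) and prostate luminal (0 of 7) markers had no call either, and of 13 leukocyte markers only CD14 was called. Genes of like level had a median difference of 0.11, and what part these markers had in any result was not tested. In bulk RNA, fewer cells of a type and less RNA per cell cannot be told apart.

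With limma, at a Benjamini-Hochberg adjusted p under 0.05 over all clusters, 200 genes were higher in RWF-treated WPMY-1 cells (0.89% of 22465) and 248 were lower (1.1%), 448 in all (1.99%). Of these 175 and 214 were protein-coding. Both RWF arrays lay on one side of both vehicle arrays for all 448, as they did for 58.5% of all genes. The smallest rise called was 0.39 and the smallest fall 0.40 on the log2 scale. A further reading without a test, a difference of at least 1.3-fold with non-overlapping arrays, took 622 genes up (2.77%) and 880 down (3.92%). At an unadjusted p under 0.05, 2668 genes were higher and 2211 lower. Centring each array on its median moved the split to 138 higher and 350 lower by the test, and to 429 and 1227 by the 1.3-fold reading. The balance of rises and falls thus differed with the scaling of the arrays, while each called gene named here had the same direction under all scalings tried. Of 133 called genes described by name, 32 lost their call under quantile normalization, 9 under median centring and 38 under cyclic loess.

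Differences drifted with brightness. The median over all genes was 0.05, with 13901 of the 22465 differences above 0. Over 4 bins of about equal size by mean level it was 0.05 for the dimmest genes (levels of 1.56 to 4.22), 0.11 up to 5.69, 0.06 up to 7.09, and -0.05 for the brightest (up to 13.3). In BPH-1 the same bins had medians of -0.01, 0.00, 0.00 and 0.00. Calls were fewest among the dimmest WPMY-1 genes, with 13 higher and 7 lower, and leaned down among the brightest, with 77 higher and 145 lower.

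**Figure D1:**
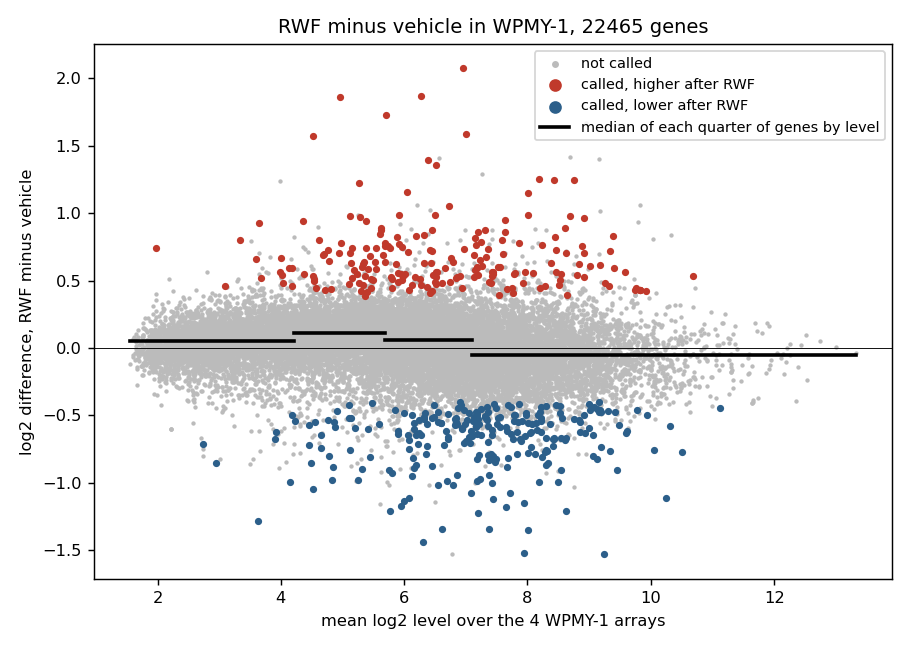
The log2 difference between RWF and vehicle in WPMY-1 cells (y axis) is plotted against the mean log2 level over the 4 arrays (x axis) for 22465 genes, with called rises in red, called falls in blue and the median of each level bin as a black line. The 200 rises and 248 falls lie across most of the range, and the median passes from 0.11 in the second bin to -0.05 in the brightest.

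The 4 WPMY-1 arrays resembled each other closely over all clusters, with a correlation of 0.996 between the RWF arrays and 0.995 between the vehicle arrays, but with so few arrays most calls leaned on each of them. Of the 448 genes, 55 kept their call without RWF replicate 1, 90 without RWF replicate 2, 58 without vehicle replicate 1 and 219 without vehicle replicate 2. Leaving out 1 BPH-1 array, which enters only through the shared spread, left 239 (an RWF array) or 190 (a vehicle array). In all 8 such fits 35 genes were called, 24 rises and 11 falls, and 133 genes were called in none. Called genes named below are described as called in all 8 fits where that was so, and kept their direction in each fit otherwise. Leaving out either array of the same BPH-1 group gave the same WPMY-1 differences and calls. The 8 fits are thus not 8 separate checks, and tallies over them count such pairs of fits double.

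The largest rises joined sterol enzymes to genes of adhesion, innate sensing and transport. HSD17B7, which reduces a keto sterol late in cholesterol synthesis, read 7.05 and 7.35 with RWF, against 5.19 and 5.47 with vehicle, a 3.66-fold rise (difference 1.87, SE 0.23, adjusted p = 0.0104). SLCO4C1, an organic anion transporter, read 6.03 and 5.76 with RWF, against 4.16 and 3.90 with vehicle, a difference of 1.86 with vehicle values that can be background. Both genes were well apart between the groups, by more than the gap between the arrays of either group. ANXA10, a calcium-dependent phospholipid-binding annexin, read 6.86 and 6.26 with RWF, against 4.83 and 4.84 with vehicle, so that its RWF arrays disagreed by 0.60 while its vehicle arrays hardly differed. KLHL24, a substrate adaptor of cullin ubiquitin ligases, read 7.16 and 7.22 with RWF, against 5.86 and 5.79 with vehicle. HERC5, the ligase that attaches the ubiquitin-like protein ISG15, read 5.84 and 5.91 with RWF, against 4.50 and 4.80 with vehicle. All 4 arrays of each of these genes separated by treatment, as they did in every called gene.

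GCH1, the first enzyme of tetrahydrobiopterin synthesis, rose by 1.16, MCOLN3, an endolysosomal cation channel, by 0.99, LPXN, a LIM-domain adaptor of focal adhesions, by 0.99, TDRKH, a Tudor-domain protein of small-RNA processing, by 0.99, and the pseudogene NMRAL2P by 0.97. Among the 20 largest rises were also NTN4, LY96, CXADR, SLFN5, ICAM1, FABP3, NPC1 and the sterol genes, described with their pathways. These 20 are counted without 2 genes of ER stress and autophagy that rose at least as much as the last of them. SLCO4C1, ANXA10, KLHL24, HERC5, MCOLN3, TDRKH and NMRAL2P were called in all 8 fits. The 20 kept 15 and 16 calls without RWF replicates 1 and 2, and 14 and 19 without vehicle replicates 1 and 2, with differences from 0.83 to 2.19.

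The largest falls held genes of matrix, secretion and signalling. HAS2, a hyaluronan synthase, read 8.22 and 8.72 with RWF, against 9.78 and 10.22 with vehicle, a fold of 0.346 (difference -1.53, SE 0.27, adjusted p = 0.0404). ABCA1, the cholesterol efflux pump, read 5.56 and 5.60 with RWF, against 6.96 and 7.09 with vehicle. LXN, latexin, an inhibitor of carboxypeptidases, read 5.79 and 6.09 with RWF, against 7.59 and 6.99 with vehicle. CPA4, a carboxypeptidase of the class that latexin inhibits, read 6.60 and 6.50 with RWF, against 7.54 and 7.71 with vehicle. ABCA1 was the tightest of these, and the arrays of HAS2 and LXN spread by 0.30 to 0.59 within a treatment. POLR1E, a subunit of RNA polymerase I, read 7.98 and 8.06 with RWF, against 9.23 on each vehicle array.

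TRPC4, a receptor-operated cation channel, fell by 1.17, F2RL2, a protease-activated receptor, by 1.12, MEST, the product of an imprinted gene of mesoderm, by 1.08, LIN7A, a polarity scaffold, by 1.21, and NREP, a protein of mesenchymal cells and regenerating neurons, by 1.34. ABCA1, CCBE1, MIR125B1, POLR1E, TRPC4, MYL9 and MEST were called in all 8 fits. The 20 largest falls kept 9 and 12 calls without RWF replicates 1 and 2, and 12 and 17 without vehicle replicates 1 and 2, with differences from -1.80 to -0.80. HAS2 lost its call without either vehicle replicate, without either RWF replicate and without either BPH-1 RWF array.

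**Figure D2:**
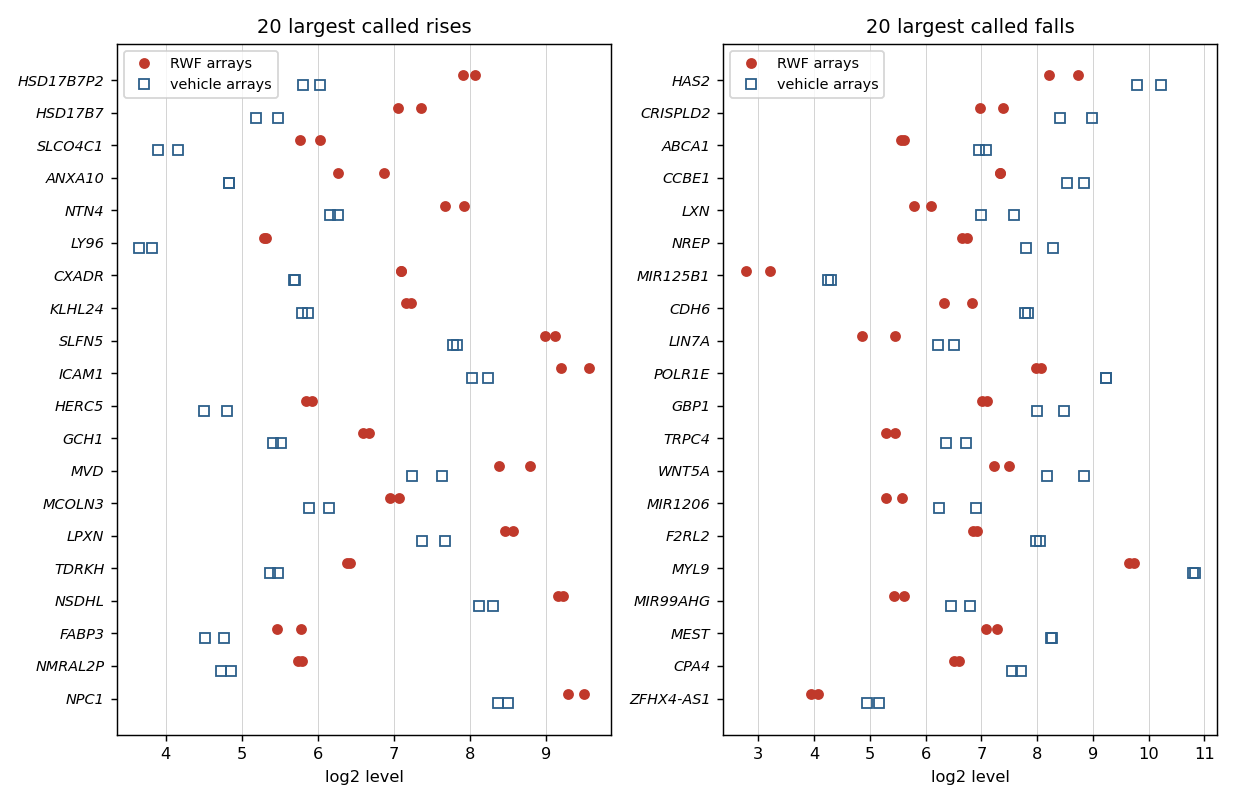
Log2 levels (x axis) of the 20 largest called rises (left) and the 20 largest called falls (right), a gene to each line, with filled circles for the 2 RWF arrays and open squares for the 2 vehicle arrays. No RWF point lies among the vehicle points of its gene, which the choice of these genes required. The rises are counted without 2 genes of ER stress and autophagy that rose at least as much as the last one shown. MYL9, POLR1E and CXADR have the tightest pairs.

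The contractile genes that were called all fell. Of 32 measured contractile and actin-binding genes, 11 fell and none rose, and 31 of the 32 differences were below 0, with a median of -0.30 against 0.05 over all genes and -0.05 over the brightest bin, in which the list's median level of 8.55 lies. LMOD1, which nucleates actin filaments in smooth muscle, was the exception, at 5.22 and 5.10 with RWF, against 5.00 and 5.05 with vehicle (difference 0.13, adjusted p = 0.407). MYL9, the regulatory myosin light chain whose phosphorylation starts contraction, read 9.74 and 9.65 with RWF, against 10.83 and 10.79 with vehicle, a fold of 0.462 (difference -1.11, SE 0.10, adjusted p = 0.00371). TAGLN, transgelin, an actin cross-linker of smooth muscle, read 7.01 and 6.92 with RWF, against 7.81 and 7.71 with vehicle. CNN2, a calponin that binds actin and restrains myosin, read 9.04 and 8.87 with RWF, against 9.74 and 9.70 with vehicle. For these 3 genes the arrays of a treatment differed by less than 0.2 and the treatments by more than 0.7.

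PALLD, palladin, a scaffold of stress fibres, fell by 0.94, TPM1 by 0.91 and TPM2 by 0.40 (tropomyosins, which coat actin filaments), CALD1, caldesmon, by 0.73, PDLIM7, a PDZ and LIM protein of actin bundles, by 0.64, LIMA1, which stabilises actin filaments, by 0.52, and TAGLN2, a second transgelin, by 0.43. MRTFA, the cofactor that carries the actin signal to serum response factor, read 7.09 and 7.03 with RWF, against 7.66 and 7.52 with vehicle, and fell by 0.52 (adjusted p = 0.0291). The 11 kept 4 calls without RWF replicate 1 (MYL9, TAGLN, CNN2 and PDLIM7), 2 without RWF replicate 2 (MYL9 and CNN2), 2 without vehicle replicate 1 (MYL9 and PALLD), 9 without vehicle replicate 2 and 6 or 7 without a BPH-1 array, with differences from -1.16 to -0.35. Quantile normalization or cyclic loess left 7 called and median centring gave 14, with list medians from -0.36 to -0.24.

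Among 11 markers of mature smooth muscle the one call was a rise. SYNM, synemin, an intermediate filament protein of muscle, read 7.58 and 7.69 with RWF, against 6.69 and 6.85 with vehicle (difference 0.86, adjusted p = 0.00616), and was called in all 8 fits. CNN1, the smooth muscle calponin, read 6.0 and 5.86 with RWF, against 6.47 and 6.25 with vehicle, and ACTG2, enteric smooth muscle actin, 4.09 and 4.17 with RWF, against 4.37 and 4.35 with vehicle. Neither passed the test (adjusted p = 0.0717 and 0.165). DES, desmin, and MYH11, smooth muscle myosin heavy chain, lay between 4.76 and 4.80 and between 5.29 and 5.43 on the 4 arrays, below the median level of all genes, 5.69.

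The CArG box, the sequence bound by serum response factor, was searched on both strands in the 250 bases before the RefSeq start of each gene with a promoter in the table. It was found in 7 of 29 contractile genes (24.1%), against 176 of 15247 measured genes (1.15%), but in 1 of the 9 called contractile genes with a promoter in the table. That gene was CNN2, shown because it alone joins a called fall to a match. Its window lies at chr19:1026358-1026607 on the plus strand of GRCh38.p14, with the CArG box, at positions -89 to -80 from the start, in capitals. A match describes these letters and is not evidence of binding.
CNN2: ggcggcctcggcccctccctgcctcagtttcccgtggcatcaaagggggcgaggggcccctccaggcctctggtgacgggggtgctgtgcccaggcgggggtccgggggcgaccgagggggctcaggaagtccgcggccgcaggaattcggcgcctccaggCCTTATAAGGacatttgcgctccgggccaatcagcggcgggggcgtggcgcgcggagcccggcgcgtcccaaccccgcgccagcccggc

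**Figure D3:**
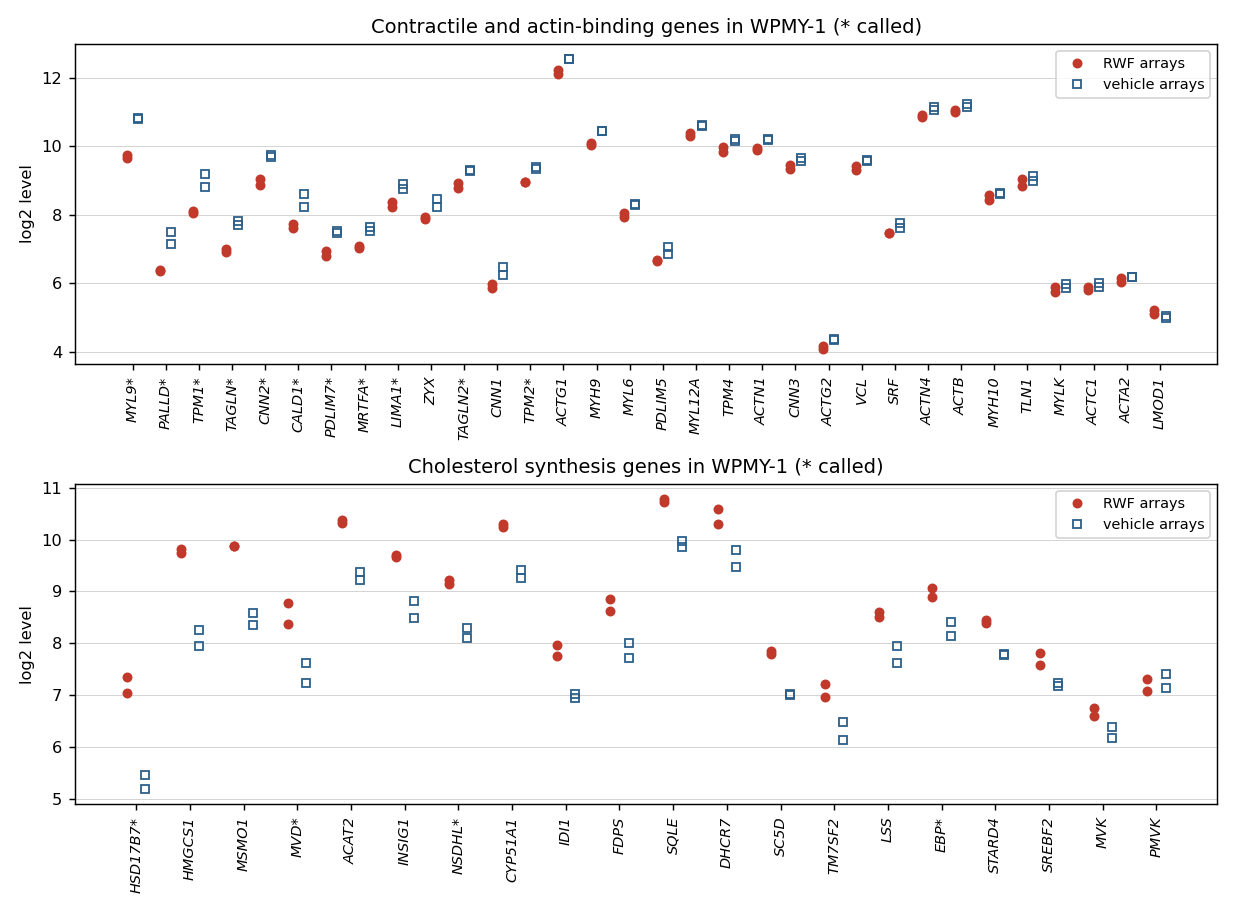
Log2 levels (y axis) on the 2 RWF arrays (filled circles) and the 2 vehicle arrays (open squares) of WPMY-1 cells for 32 contractile and actin-binding genes (top) and 20 cholesterol synthesis genes (bottom), ordered by difference, with called genes starred. All contractile genes but LMOD1 had a lower mean with RWF, and all cholesterol synthesis genes but PMVK had a higher one.

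Genes on the matrix lists fell where they were called. NTN4, a protein of basement membranes counted below with guidance genes, is not on these lists and rose by 1.59. Of 23 measured collagens, 3 fell and none rose, and the other 20 were not called, with a list median of 0.03 that turned to -0.03 under median centring and under cyclic loess. COL6A3, a chain of the microfibrillar collagen VI, read 9.09 and 9.26 with RWF, against 9.69 and 9.63 with vehicle, beside the 2 chains of type I collagen given above. COL5A2, a chain of the fibril-nucleating collagen V, read 7.34 and 7.27 with RWF, against 8.02 and 7.65 with vehicle, and did not pass (adjusted p = 0.0702). Thus the called collagens were 3 bright chains, all between 9.09 and 10.04 on every array.

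One of 20 genes of collagen processing was called. LOXL1, a lysyl oxidase that cross-links elastin and collagen, read 8.44 and 8.64 with RWF, against 9.10 and 9.24 with vehicle, and fell by 0.63 (adjusted p = 0.0253). LOX and LOXL2, its relatives, had differences of -0.53 and -0.38 and did not pass (adjusted p = 0.0755 and 0.116). Of 38 matrix glycoproteins and proteoglycans 3 fell and none rose (median -0.13). CRISPLD2, a secreted CAP-domain protein, read 7.38 and 6.97 with RWF, against 8.98 and 8.41 with vehicle. CCBE1, a secreted protein needed for the activation of the lymphatic factor VEGF-C, read 7.34 and 7.33 with RWF, against 8.84 and 8.54 with vehicle. TNC, tenascin-C, a glycoprotein of remodelled stroma, read 9.67 and 9.66 with RWF, against 10.59 and 10.25 with vehicle. In each of the 3 the vehicle arrays were further apart than the RWF arrays, and no arrays overlapped between treatments, as in every called gene.

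CCBE1 was called in all 8 fits. COL1A1, COL1A2, COL6A3, LOXL1, CRISPLD2, CCBE1 and TNC together kept 2 calls without RWF replicate 1 (CRISPLD2 and CCBE1), 2 without RWF replicate 2 (LOXL1 and CCBE1), 2 without vehicle replicate 1 (CRISPLD2 and CCBE1) and 4 without vehicle replicate 2, with differences from -1.80 to -0.39. THBS2, thrombospondin-2, had a difference of -0.48 and did not pass (adjusted p = 0.0742).

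Of 13 hyaluronan genes, HAS2 and LAYN fell. LAYN, layilin, a hyaluronan receptor, read 7.13 and 7.04 with RWF, against 8.04 and 7.77 with vehicle. Of 28 matrix proteases and inhibitors 2 fell and none rose (median 0.09). ADAM19, a membrane metalloprotease that sheds neuregulins, read 6.64 and 6.74 with RWF, against 7.81 and 7.54 with vehicle, a fold of 0.505 (adjusted p = 0.00595). ADAMTS6, a secreted metalloprotease, read 6.80 and 6.70 with RWF, against 7.85 and 7.59 with vehicle. ADAM19 was called in all 8 fits and was the one of the 4 to stay called without RWF replicate 1, RWF replicate 2 or vehicle replicate 1, where the 4 differences ran from -1.78 to -0.69.

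Adhesion genes moved in both directions. CXADR, the coxsackievirus and adenovirus receptor, a junction protein, read 7.10 and 7.08 with RWF, against 5.69 and 5.70 with vehicle, a 2.63-fold rise (difference 1.40, SE 0.10, adjusted p = 0.00158). ITGA6, the alpha chain of laminin-binding integrins, read 7.44 and 7.68 with RWF, against 6.84 and 7.06 with vehicle, and rose by 0.61. ITGA4, the alpha chain of an integrin that binds VCAM1 and fibronectin, read 6.26 and 6.48 with RWF, against 7.15 and 6.93 with vehicle, and fell by 0.67. The pairs of both integrins differed by about 0.2 within a treatment, and CXADR by no more than 0.02.

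TNS3, tensin-3, which ties integrins to actin, fell by 0.65 and PXN, paxillin, the focal adhesion scaffold, by 0.43, so that of 26 genes of integrins and focal adhesion 1 rose and 3 fell (median -0.01). Of 19 cadherins, protocadherins and other junction genes 1 rose, CXADR, and 2 fell. CDH6, a cadherin of mesenchyme and kidney, read 6.33 and 6.83 with RWF, against 7.78 and 7.83 with vehicle, and PCDH18, a protocadherin, fell by 0.71. CXADR was called in all 8 fits. Leaving out RWF replicate 1 or vehicle replicate 1 left it alone of the 7, while CDH6 and PCDH18 also stayed without RWF replicate 2, and ITGA4, TNS3 and ITGA6 without vehicle replicate 2.

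Of 42 growth factors and receptors 7 were called, all of them ligands and all falls. The list median was 0.05, as for all genes, and turned to -0.01 under cyclic loess. NRG1, neuregulin-1, a ligand of ERBB receptors, read 6.29 and 6.13 with RWF, against 7.23 and 7.14 with vehicle, a fold of 0.506 (difference -0.98, adjusted p = 0.0106). FGF2, basic fibroblast growth factor, a stromal mitogen, read 9.09 and 8.89 with RWF, against 10.03 and 9.76 with vehicle. BDNF, a neurotrophin, read 5.95 and 5.56 with RWF, against 6.78 and 6.46 with vehicle. In all 3 the lower vehicle array lay above the higher RWF array by more than 0.5.

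PDGFC, a platelet-derived growth factor of mesenchyme, fell by 0.79, HBEGF, a heparin-binding ligand of the EGF receptor, by 0.52 and FGF5, a relative of FGF2, by 0.48. HGF, the hepatocyte growth factor by which stroma acts on epithelial MET, read 4.0 and 4.20 with RWF, against 4.67 and 4.98 with vehicle, near the dim end of the table. The 7 kept 2 calls without RWF replicate 1 (NRG1 and FGF2), 0 without RWF replicate 2, 1 without vehicle replicate 1 (HGF) and 4 without vehicle replicate 2, with differences from -1.06 to -0.42. They were thus among the least firm calls against the loss of 1 array.

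Of morphogens and guidance cues, WNT5A, a non-canonical Wnt ligand of stroma, read 7.50 and 7.23 with RWF, against 8.84 and 8.18 with vehicle, and was the one call among 30 Wnt pathway genes. GREM1, gremlin-1, an antagonist of BMPs secreted by fibroblasts, read 11.02 and 10.87 with RWF, against 10.35 and 10.48 with vehicle, and was the one call among 32 genes of the TGF-beta and BMP pathway (difference 0.53, adjusted p = 0.0355). NTN4, netrin-4, a laminin-binding protein of basement membranes, read 7.91 and 7.67 with RWF, against 6.15 and 6.26 with vehicle, a 3.01-fold rise (adjusted p = 0.00146). So a Wnt ligand was lower and a BMP antagonist and a netrin higher, and WNT5A had the widest gap between its vehicle arrays. NRP2, a co-receptor of semaphorins and VEGF-C, fell by 0.62 and EPHA5, an ephrin receptor, by 0.49, which with NTN4 made 1 rise and 2 falls among 35 axon guidance genes. NTN4 was called in all 8 fits and was the one of the 5 to stay called in every fit that left out an array other than vehicle replicate 2, where WNT5A (-1.48), GREM1 and NRP2 stayed too. Without vehicle replicate 1 the difference of WNT5A was -0.81.

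Of 39 NF-kB genes, chemokines and cytokines, 1 rose and 4 fell (median 0.04). ICAM1, the leukocyte adhesion molecule, read 9.56 and 9.19 with RWF, against 8.03 and 8.23 with vehicle, a 2.37-fold rise (difference 1.24, SE 0.13, adjusted p = 0.00595). The 4 falls were all chemokines. CXCL12, which draws CXCR4-bearing cells, read 5.93 and 6.16 with RWF, against 7.18 and 6.94 with vehicle. CCL2, the monocyte chemoattractant, read 10.07 and 10.16 with RWF, against 11.03 and 10.74 with vehicle. In ICAM1 the RWF arrays differed by 0.37 and both lay above the vehicle arrays, and in the chemokines both lay below.

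CXCL1 and CXCL6, ligands of neutrophil receptors, fell by 0.76 and 0.60. CXCL8, another neutrophil ligand, lay between 9.48 and 9.65 on the 4 arrays, and IL6, the interleukin, between 5.97 and 6.57, with groups that overlapped. ICAM1 was called in all 8 fits, while without RWF replicate 1 or vehicle replicate 1 all 4 chemokine falls lost their calls, and without RWF replicate 2 CXCL12 alone kept its own, at differences from -1.13 to -0.50.

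Receptors of innate sensing were dim and rose where called. Of 19 Toll-like receptors and adaptors 3 rose and none fell (median 0.08). LY96, which encodes MD-2, the protein that holds lipopolysaccharide on TLR4, read 5.32 and 5.30 with RWF, against 3.82 and 3.65 with vehicle, a rise (difference 1.57, SE 0.09, adjusted p = 0.00146). Its vehicle values can be background, so no exact fold is given. CD14, the co-receptor that hands lipopolysaccharide to MD-2, read 4.85 and 4.71 with RWF, against 4.27 and 4.31 with vehicle. TLR2, the receptor of bacterial lipoproteins, read 4.42 and 4.41 with RWF, against 3.92 and 4.0 with vehicle. TLR4, the receptor that MD-2 serves, read 4.97 and 4.68 with RWF, against 4.36 and 4.23 with vehicle, and did not pass (adjusted p = 0.0731). LY96 was called in all 8 fits, and CD14 and TLR2 lost their calls in each of the 8, at differences from 0.42 to 0.56. All 4 genes lay below the median level of all genes, 5.69, on each array.

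Of 41 interferon-stimulated genes 3 rose and 1 fell (median 0.09). SLFN5, a Schlafen protein, read 9.11 and 8.98 with RWF, against 7.77 and 7.82 with vehicle, a 2.38-fold rise (adjusted p = 0.00224). GBP1, a guanylate-binding GTPase, moved the other way, at 7.02 and 7.10 with RWF, against 8.48 and 7.99 with vehicle. PARP14, a mono-ADP-ribosyltransferase, rose by 0.70 and IFIH1, which encodes the RNA sensor MDA5, by 0.63. The genes of this list did not share a direction, and its 2 largest called changes were opposed. That holds for this list only. HERC5, given above and not on it, rose by 1.23 (adjusted p = 0.00395), more than GBP1 fell. SLFN5 was called in all 8 fits, GBP1 lost its call without either RWF replicate (-1.13 and -1.22), and IFIH1 kept its call only without RWF replicate 1. Of 15 ligands of natural killer receptors NCR3LG1, which encodes the NKp30 ligand B7-H6, rose by 0.89 (adjusted p = 0.0279), with a list median of 0.25. It was called in 3 of the 8 fits, among them that without vehicle replicate 2 (1.08), and not without vehicle replicate 1 (0.70).

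Cholesterol synthesis had the highest median of all lists, 0.86 against 0.05 over all genes. Of 20 measured genes, most of them enzymes, 4 rose and none fell, 19 differences were above 0, and the same number were at least 1.3-fold with non-overlapping arrays (2.77% of all genes were). At an unadjusted p under 0.05 18 were higher, against 2668 of all 22465 genes. MVD, which makes isopentenyl pyrophosphate from the mevalonate pathway, read 8.78 and 8.38 with RWF, against 7.24 and 7.62 with vehicle (difference 1.15, adjusted p = 0.0436). NSDHL, which removes a methyl group from the sterol, read 9.22 and 9.15 with RWF, against 8.11 and 8.30 with vehicle (difference 0.98, adjusted p = 0.0457). EBP, a sterol isomerase, read 9.07 and 8.90 with RWF, against 8.15 and 8.41 with vehicle (difference 0.71, adjusted p = 0.0334). With HSD17B7, given above, the 4 called enzymes act at early and late steps, and the vehicle arrays were further apart in them than the RWF arrays in all but MVD and HSD17B7.

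Wide standard errors, which pool the spread of both lines, went with 2 large rises that did not pass. In WPMY-1 the RWF and vehicle pairs stood 0.08 and 0.32 apart for HMGCS1, and 0.0007 and 0.23 apart for MSMO1. Most of the spread behind these standard errors thus lay between BPH-1 arrays. HMGCS1, the synthase that starts the mevalonate pathway, read 9.74 and 9.82 with RWF, against 7.94 and 8.27 with vehicle (difference 1.67, SE 0.49, adjusted p = 0.131). MSMO1, a sterol methyl oxidase, read 9.87 on each RWF array, against 8.35 and 8.58 with vehicle (difference 1.40, SE 0.33, adjusted p = 0.0801). PMVK, phosphomevalonate kinase, was the exception, at 7.08 and 7.31 with RWF, against 7.13 and 7.42 with vehicle, with overlapping arrays. Fitting 1 cluster per gene called 11 of the 20, while quantile normalization called 4, median centring 3 and cyclic loess 2. The list median ran from 0.80 to 0.92 under these scalings. HSD17B7P2, a pseudogene of HSD17B7 on chromosome 10, read 7.91 and 8.07 with RWF, against 5.80 and 6.02 with vehicle, the largest rise of all (2.08), and its probes may read the parent gene too, which was not checked. HSD17B7P2 was called in all 8 fits, HSD17B7 was lost without RWF replicate 2 or vehicle replicate 1, and MVD, NSDHL and EBP were called in 3, 2 and 3 of the 8. The 4 enzymes ran from 0.58 (EBP) to 2.02 (HSD17B7) over the 8 fits.

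The CCAAT box, CCAAT or ATTGG on the other strand, was found in the 250 bases before the start in 15 of 18 cholesterol synthesis genes with a promoter in the table (83.3%), against 34.4% of the 15247 promoters of measured genes. All 4 called enzymes held it, and their windows are shown for that reason, 5′ to 3′ on the strand of the gene, from RefSeq GRCh38.p14, with the boxes in capitals. HSD17B7 lies at chr1:162790452-162790701 (plus strand), MVD at chr16:88663092-88663341 (minus), NSDHL at chrX:152830813-152831062 (plus) and EBP at chrX:48521558-48521807 (plus). HSD17B7 holds 1 box, MVD 3, NSDHL 5 (of which 2 overlap) and EBP 3, the nearest to the start beginning at positions -52, -85, -84 and -30, where -1 is the base before the start. The box was also found in 15 of 29 contractile genes with a promoter in the table (51.7%), a list that leaned down. The matches are a description of the letters.
HSD17B7: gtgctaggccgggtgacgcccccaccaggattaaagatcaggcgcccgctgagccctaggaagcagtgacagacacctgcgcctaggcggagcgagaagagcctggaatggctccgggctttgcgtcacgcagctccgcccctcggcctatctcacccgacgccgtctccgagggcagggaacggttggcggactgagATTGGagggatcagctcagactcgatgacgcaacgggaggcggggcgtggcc
MVD: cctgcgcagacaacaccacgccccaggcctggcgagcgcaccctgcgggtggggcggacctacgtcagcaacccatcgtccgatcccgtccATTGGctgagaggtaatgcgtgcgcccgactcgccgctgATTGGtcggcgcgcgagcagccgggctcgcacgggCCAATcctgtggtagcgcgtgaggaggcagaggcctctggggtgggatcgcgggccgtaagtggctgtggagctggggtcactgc
NSDHL: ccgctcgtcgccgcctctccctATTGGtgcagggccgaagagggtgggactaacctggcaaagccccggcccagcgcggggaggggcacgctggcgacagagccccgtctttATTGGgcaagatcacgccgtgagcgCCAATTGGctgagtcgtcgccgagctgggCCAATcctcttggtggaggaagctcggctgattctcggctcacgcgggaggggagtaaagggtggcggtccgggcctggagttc
EBP: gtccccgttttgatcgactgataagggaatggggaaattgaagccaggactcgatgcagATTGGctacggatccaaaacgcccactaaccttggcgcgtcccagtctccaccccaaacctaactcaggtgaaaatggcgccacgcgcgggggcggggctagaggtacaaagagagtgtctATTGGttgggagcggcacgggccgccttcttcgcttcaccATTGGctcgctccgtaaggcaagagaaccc

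Sterol transport genes moved in both directions. Of 15 genes of cholesterol efflux and sterol export 1 rose and 1 fell (median 0.13). NPC1, which moves cholesterol out of the lysosome, read 9.50 and 9.29 with RWF, against 8.36 and 8.49 with vehicle, a 1.95-fold rise (adjusted p = 0.0164). ABCA1, given above, fell to a fold of 0.368 (adjusted p = 0.00597). FABP3, a cytosolic carrier of fatty acids, read 5.77 and 5.46 with RWF, against 4.51 and 4.76 with vehicle, and ELOVL7, an elongase of long fatty acids, rose by 0.71. In phospholipid synthesis CHKA, choline kinase, rose by 0.60 and AGPAT5, an acyltransferase of phosphatidic acid synthesis, fell by 0.52. ABCA1 was called in all 8 fits and was the only 1 of the 6 to stay without RWF replicate 1 or vehicle replicate 1, while NPC1 and FABP3 stayed without RWF replicate 2, and NPC1, FABP3 and CHKA without vehicle replicate 2. AGPAT5 was called in none of the 8, with differences from -0.58 to -0.45, and the other rises ran from 0.54 to 1.14.

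Among 1056 microRNA genes 3 rose and 11 fell (median 0.04), against 0.89% and 1.1% of all genes. The array reads these loci through probes that need not separate the mature form from its precursor or host transcript, so the values are of the locus. Mature sequences from RefSeq (GRCh38.p14) are shown for the called microRNAs described here that have one in the table, with the seed, bases 2 to 8, in capitals, since the seed sets which messages a microRNA can pair with. The mature sequences lie at chr11:122099809-122099830 and chr11:122152275-122152296 (both minus strand), chr7:130876748-130876769 (minus), chr9:124693725-124693747 (plus) and chr17:68424511-68424533 (minus) in the order of the lines, and no 2 of the 5 share a seed.
hsa-miR-125b-5p: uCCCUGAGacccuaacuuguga
hsa-miR-100-5p: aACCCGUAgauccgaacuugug
hsa-miR-29a-3p: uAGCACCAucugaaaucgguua
hsa-miR-181b-5p: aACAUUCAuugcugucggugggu
hsa-miR-635: aCUUGGGCacugaaacaaugucc

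MIR125B1, which makes miR-125b, read 3.21 and 2.77 with RWF, against 4.30 and 4.25 with vehicle (difference -1.29, adjusted p = 0.00634). MIR100, which lies near it on chromosome 11, read 3.53 and 3.70 with RWF, against 4.32 and 4.16 with vehicle (difference -0.62, adjusted p = 0.0486). MIR29A, whose product pairs with collagen messages, read 5.67 and 5.62 with RWF, against 6.79 and 6.40 with vehicle (difference -0.95, adjusted p = 0.0412). The 2 microRNA genes of chromosome 11 were dim and both lower with RWF, and MIR29A was brighter, with vehicle arrays that stood 0.39 apart.

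MIR181B2, of the miR-181 family, fell by 0.85, MIR1206 fell by 1.13, and MIR635 rose by 0.67. MIR125B1 was called in all 8 fits, with differences from -1.51 to -1.06. It was the only 1 of the 6 to keep its call without RWF replicate 1, RWF replicate 2 or vehicle replicate 1, and 5 kept theirs without vehicle replicate 2, where MIR100 was lost. MIR100 was called in none of the 8 fits, with differences from -0.71 to -0.54. MIR99AHG, the host transcript of miR-99a on chromosome 21, read 5.60 and 5.43 with RWF, against 6.80 and 6.46 with vehicle, and fell by 1.11.

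Other non-coding genes with calls included 17 of 1840 long non-coding RNAs, 8 higher and 9 lower, and 3 of 173 box C/D small nucleolar RNAs, all lower (median -0.10). Over all genes 0.89% were called higher and 1.1% lower. The pseudogene NUDT9P1 read 3.97 and 4.24 with RWF, against 3.24 and 3.11 with vehicle, LINC02035 rose by 0.87 and LINC00161 by 0.80. ZFHX4-AS1, an antisense transcript of ZFHX4, read 3.94 and 4.07 with RWF, against 5.16 and 4.94 with vehicle, and whether its probes are free of the sense gene was not checked. SNORD18B, a guide of ribosomal RNA methylation, read 4.23 and 4.46 with RWF, against 5.59 and 5.06 with vehicle. The rises were dim genes, at or below 5.20 on the vehicle arrays. NMRAL2P, NUDT9P1 and LINC02035 were called in all 8 fits, LINC00161 and ZFHX4-AS1 lost their calls without RWF replicate 1, MIR99AHG without RWF replicate 2, and SNORD18B in every fit but that without vehicle replicate 2, with differences from -1.25 to -0.71 over the 8.

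Genes of ribosome production leaned down with few calls. Of 42 ribosome biogenesis genes 2 fell and none rose, against 1.1% and 0.89% of all genes. In this list 40 differences were below 0, with a median of -0.31, and 29 were lower at an unadjusted p under 0.05. Over all 22465 genes 8564 differences were below 0 and 2211 were lower at that p. POLR1E, given above, fell by 1.21 (adjusted p = 0.00201). NOP16, a nucleolar protein of the large subunit, read 6.97 and 6.90 with RWF, against 7.46 and 7.53 with vehicle. Of 21 genes of nucleotide and one-carbon synthesis 4 fell and none rose, with a median of -0.31. PRPS1, which makes the ribose phosphate that starts purine synthesis, read 8.77 and 8.54 with RWF, against 9.56 and 9.36 with vehicle, a fold of 0.573 (adjusted p = 0.0164).

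IMPDH2, the committed enzyme of guanine nucleotides, fell by 0.51, and PAICS and MTHFD1, of purine and folate synthesis, each by 0.46. Cytosolic ribosomal proteins (31 measured), mitochondrial ribosomal proteins (38) and respiratory chain subunits (33) had no call, with medians of -0.16, -0.21 and -0.12 (-0.07, -0.15 and -0.09 under quantile normalization), and of 38 splicing genes HNRNPD, an RNA-binding protein of AU-rich messages, fell by 0.43 (median -0.18) and lost its call under quantile normalization and cyclic loess. These lists all lie in the brightest bin by their median levels, for which the median was -0.05, and 12 housekeeping genes, still brighter, had a median of -0.13 with no call. POLR1E was called in all 8 fits. PRPS1 also kept its call without RWF replicate 1 and without vehicle replicate 2, and NOP16, IMPDH2, PAICS and MTHFD1 lost theirs whichever WPMY-1 array was left out, at differences from -0.60 to -0.40.

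**Figure D4:**
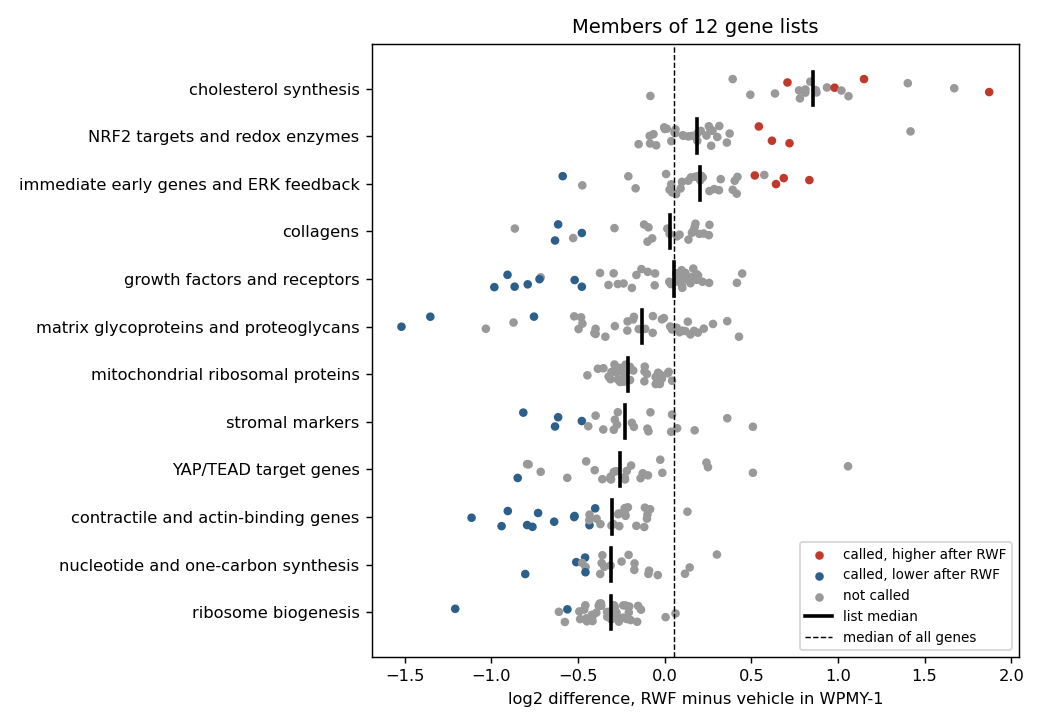
Log2 differences between RWF and vehicle in WPMY-1 cells (x axis) of the members of 12 gene lists, a point for each gene, red where called higher, blue where called lower and grey where not called, with list medians as black bars and the median of all genes, 0.05, as a dashed line. The median of cholesterol synthesis lies furthest right, at 0.86, and those of the contractile genes (-0.30), nucleotide synthesis (-0.31) and ribosome biogenesis (-0.31) lie furthest left.

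Few cell cycle genes were called, as was so of all genes (0.89% higher and 1.1% lower). Of 37 genes of G1/S and DNA replication CDK6 alone fell, and of 35 genes of G2/M CDC20 alone, with medians of -0.09 and -0.12 that lay at -0.02 and -0.03 under quantile normalization. CDK6, a kinase that opens the cycle, read 7.57 and 7.71 with RWF, against 8.22 and 8.16 with vehicle. CDC20, an activator of the anaphase-promoting complex, fell by 0.45. Of 15 cell cycle inhibitors 2 rose. CDKN1A, which encodes the inhibitor p21, read 7.74 and 7.67 with RWF, against 7.04 and 7.24 with vehicle, and BTG1, an antiproliferative cofactor, rose by 0.64.

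Of 20 p53 targets 5 rose and none fell, with a median of 0.15. Beside CDKN1A, and a gene of the stress responses not described here, TP53INP1, a stress-induced nuclear protein, read 6.12 and 6.01 with RWF, against 5.09 and 5.26 with vehicle, PMAIP1, the BH3-only protein NOXA, rose by 0.65 and TNFRSF10B, a death receptor of TRAIL, by 0.45. The large T antigen that immortalized the line binds p53, so these genes are a list by name and not a reading of its activity. CDK6, CDC20, CDKN1A, BTG1, TP53INP1, PMAIP1 and TNFRSF10B lost every call without RWF replicate 1, RWF replicate 2 or vehicle replicate 1, and CDKN1A kept its call without vehicle replicate 2.

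Among 31 immediate early and ERK feedback genes 4 rose and 1 fell, with 27 differences above 0 and a median of 0.21. DUSP6, the phosphatase that switches off ERK, read 6.99 and 6.50 with RWF, against 5.98 and 5.84 with vehicle (difference 0.83, adjusted p = 0.0385). ETV5, an ETS factor induced by ERK, read 7.64 and 7.32 with RWF, against 6.82 and 6.77 with vehicle, and the nuclear receptors NR4A2 and NR4A3 rose by 0.64 and 0.52. JUN, a subunit of AP-1, moved the other way, at 7.43 and 7.28 with RWF, against 7.81 and 8.08 with vehicle. All 5 lost their calls without RWF replicate 1 or vehicle replicate 1. Without RWF replicate 2 DUSP6 (1.07) and ETV5 stayed, and without vehicle replicate 2 NR4A2 stayed.

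In insulin signalling the 2 docking proteins of the receptor moved apart. IRS1 read 6.95 and 6.79 with RWF, against 7.48 and 7.43 with vehicle, and fell by 0.58 (adjusted p = 0.048). IRS2 read 6.27 and 6.31 with RWF, against 5.78 and 5.94 with vehicle, and rose by 0.43 (adjusted p = 0.0492). Together with KLHL24 they made 2 rises and 1 fall among 29 FOXO factors and their starvation-type targets (median 0.19). Under quantile normalization and under cyclic loess that list had 1 rise and no fall called, and under median centring 1 rise and 1 fall. KLHL24 was called in all 8 fits, IRS1 in none of the 8, and IRS2 only without vehicle replicate 2.

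Of 33 NRF2 targets and redox enzymes 3 rose and none fell, with 27 differences above 0 and a median of 0.19. The largest difference of the list, 1.42, was of a gene that was not called. NQO1, a quinone reductase induced by NRF2 and by the aryl hydrocarbon receptor, read 9.60 and 9.38 with RWF, against 8.84 and 8.91 with vehicle (difference 0.62, adjusted p = 0.0214). PGD, an NADPH-making enzyme of the pentose phosphate pathway, read 9.70 on each RWF array, against 8.81 and 9.15 with vehicle. TXNRD1, thioredoxin reductase, rose by 0.54. All 3 were bright genes. PGD and NQO1 stayed called without vehicle replicate 2 and NQO1 without RWF replicate 2, and without RWF replicate 1 or vehicle replicate 1 none of the 3 did, at differences from 0.47 to 0.72.

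Of 36 mesenchymal transcription factors 3 fell and none rose (median -0.03). PRRX1, a homeodomain factor of fibroblasts, read 5.70 and 5.76 with RWF, against 6.70 and 6.39 with vehicle, a fold of 0.568 (adjusted p = 0.0135). RUNX2, the factor of bone and matrix genes, read 5.95 and 5.83 with RWF, against 6.44 and 6.45 with vehicle, and MEIS2, a homeodomain cofactor, fell by 0.62. RBMS3, an RNA-binding protein on the YAP/TEAD target list, fell by 0.85 (adjusted p = 0.0484) and was the one call of 26 there. On that list 22 differences were below 0, with a median of -0.26, but the largest was a rise of 1.06 that was not called. At 1.3-fold with non-overlapping arrays 2 of its genes were higher and 7 lower. PRRX1, RUNX2 and MEIS2 all lost their calls without either RWF replicate, and PRRX1 kept its call without either vehicle replicate, at differences from -0.97 to -0.66. RBMS3 was called in 1 of the 8 fits, that without vehicle replicate 2, at differences from -1.07 to -0.63. Under quantile normalization and cyclic loess it was not called (adjusted p = 0.0626 and 0.061), and NT5E, the ectonucleotidase CD73, was called higher in its place.

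Of 394 solute carriers 5 rose and none fell (median 0.08), against 0.89% and 1.1% of all genes. SLC17A5, the lysosomal exporter of sialic acid, read 7.42 and 7.71 with RWF, against 6.68 and 6.81 with vehicle, and SLC33A1, which brings acetyl-CoA into the endoplasmic reticulum, and SLC1A4, a carrier of neutral amino acids, each rose by 0.63. Among 37 calcium and potassium channels KCNMA1, the large-conductance potassium channel of smooth muscle, was the one call, at 7.44 and 7.69 with RWF, against 8.14 and 8.09 with vehicle. SLCO4C1 and TRPC4, given above, were called in all 8 fits. SLC17A5 also stayed without RWF replicate 1, KCNMA1 without RWF replicate 2, and SLC17A5 and SLC33A1 without vehicle replicate 2, while SLC1A4 was called in none of the 8 fits, at differences from 0.52 to 0.73.

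The brightest called genes, apart from those above, were H1-4, a linker histone, which read 10.94 and 10.85 with RWF, against 11.28 and 11.40 with vehicle, C1QBP, a mitochondrial matrix protein, which fell by 0.58, APEX1, a base excision repair endonuclease, which fell by 0.50, and HNRNPR, an RNA-binding protein, which fell by 0.46. PGAM1, a glycolytic mutase, fell by 0.42 and was the one call of 33 hypoxia and glycolysis genes, and neither it nor HNRNPD was called in any of the 8 fits. STC1, stanniocalcin-1, a secreted regulator of calcium, read 9.89 and 9.84 with RWF, against 9.40 and 9.21 with vehicle, and rose by 0.57 (adjusted p = 0.0315). Of H1-4, C1QBP, APEX1, HNRNPR and STC1, none kept its call when 1 WPMY-1 array was left out, at differences from -0.65 to -0.38 for the falls and 0.47 to 0.66 for STC1. Across the 80 lists and symbol families 22 had no called member, among them HOX genes (22 measured), the circadian clock (20), the proteasome (32), cytosolic heat shock proteins (21), adrenergic, muscarinic and endothelin receptors (30) and genes of monoamine handling (13). A missed threshold does not show that these genes did not change.

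In BPH-1 cells the same comparison called 3 genes higher (0.0134%) and 2 lower (0.0089%), and 1 gene, GREM1, was called in both lines. Its BPH-1 difference was 0.87, against 0.53 in WPMY-1. The 200 rises of WPMY-1 had a median difference of 0.60 there and 0.22 in BPH-1, and the 248 falls of -0.62 in WPMY-1 and -0.12 in BPH-1, as a description only, since the genes were chosen for their WPMY-1 values. The difference between the lines was tested for each gene as an interaction. LY96 and CXADR passed (0.0089% of 22465 genes) with a larger change in WPMY-1, and 0 genes passed with a lower one (0.0%). At an unadjusted p under 0.05, 1809 genes differed between the lines.

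LY96 changed by 1.57 in WPMY-1, against 0.11 in BPH-1, an interaction of 1.46 (SE 0.13, adjusted p = 0.0455). CXADR changed by 1.40 in WPMY-1, against -0.11 in BPH-1, an interaction of 1.50 (SE 0.13, adjusted p = 0.0455). These adjusted p-values were close to the threshold and passed it under 2 of the alternatives for each gene. SLCO4C1 (1.86 in WPMY-1, 0.07 in BPH-1, interaction adjusted p = 0.0629), STC1 (0.57 in WPMY-1, -0.63 in BPH-1, adjusted p = 0.0776) and MYL9 (-1.11 in WPMY-1, 0.01 in BPH-1, adjusted p = 0.109) did not pass. STC1 and PITPNC1, a phosphatidylinositol transfer protein (0.77 in WPMY-1, -0.32 in BPH-1), had opposite signs in the lines.

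For the 20 largest rises the BPH-1 differences ran from -0.12 to 0.94, and for the 20 largest falls from -1.31 to 0.41, and none of the 40 was called in BPH-1. HAS2 had a difference of -1.53 in WPMY-1 and -1.31 in BPH-1, TNC -0.75 in WPMY-1 and -0.69 in BPH-1, and CXCL1 -0.76 in WPMY-1 and -0.66 in BPH-1. CHKA had 0.60 in WPMY-1 and 0.64 in BPH-1, NQO1 0.62 in WPMY-1 and 0.58 in BPH-1, and PMAIP1 0.65 in WPMY-1 and 0.60 in BPH-1. These 6 genes had values of like size in both lines, whereas TPM1 (-0.91 in WPMY-1, 0.54 in BPH-1), FGF2 (-0.91 in WPMY-1, 0.29 in BPH-1) and GBP1 (-1.18 in WPMY-1, 0.41 in BPH-1) had opposite signs without passing the interaction test.

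**Figure D5:**
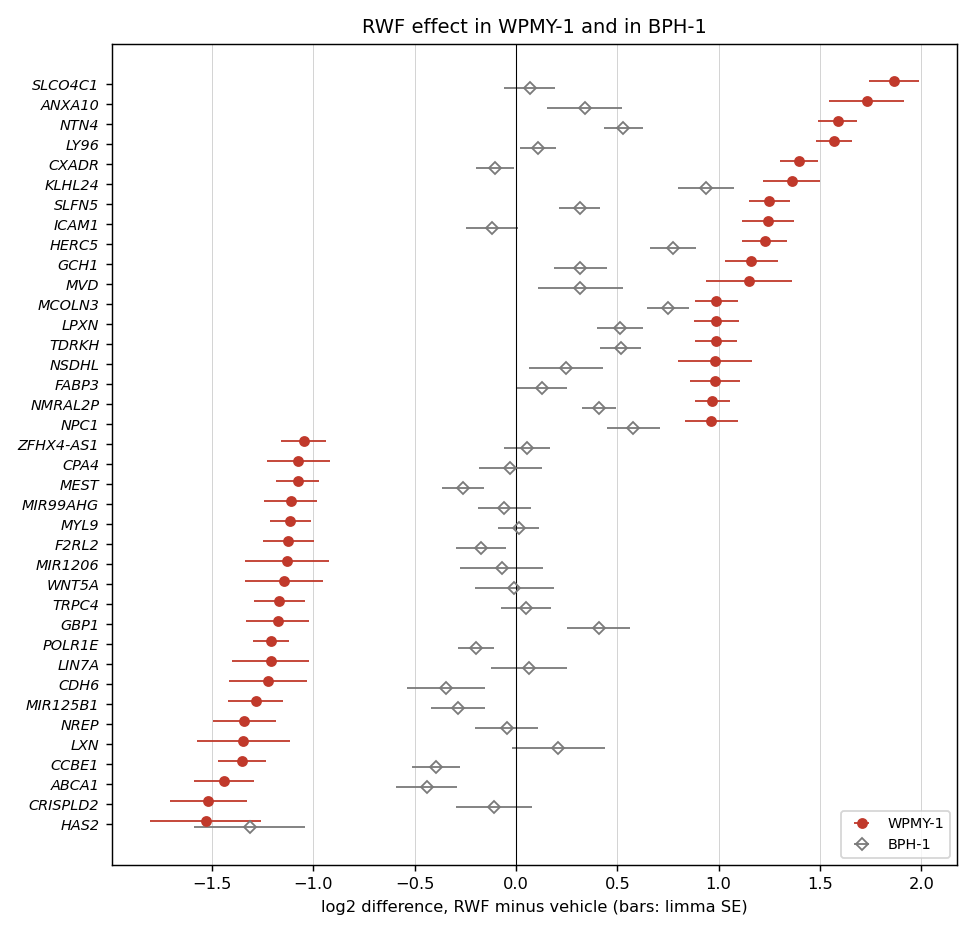
Log2 difference between RWF and vehicle (x axis, with bars of 1 limma SE) in WPMY-1 (filled circles) and in BPH-1 (open diamonds) for the 20 largest falls and for the largest rises other than HSD17B7 and HSD17B7P2. LY96 at 1.57 and CXADR at 1.40 in WPMY-1 lie at 0.11 and -0.11 in BPH-1, whereas HAS2 lies at -1.53 and -1.31.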

How the data were processed

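The authors deposited log2 expression values, made by RMA (version not given in the sources used here) from Affymetrix arrays, 1 per transcript cluster and array for 8 arrays in 4 groups of 2. RMA corrects background, normalizes arrays to each other and summarizes probes, so total signal per array is removed. Precision is limited by how few arrays there are. Values were used as deposited. Of 67528 clusters 23781 were annotated to 1 symbol, 1543 to several and 42204 to none in the platform annotation, which can be old, and 22167 of the 22465 genes matched RefSeq. 2366 clusters hold the same 8 values as another. Genes with several clusters (479) are represented by the brightest over the 8 arrays.

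Differences (RWF minus vehicle) and the interaction between lines were tested with limma 3.58.1 in R 4.3.3, two-sided, on all 8 arrays as 4 groups (4 residual and 4.34 prior degrees of freedom), with Benjamini-Hochberg adjustment over all clusters at 0.05. The median residual SD was 0.0949 in WPMY-1 and 0.0828 in BPH-1. The limma script was checked on simulated data first. Adjusted p-values in the text come from limma.

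The members, the 61 gene lists and 19 symbol families were chosen with earlier results of these data known, so none is independent support. Lists are described by counts and medians, to be read beside the shares of all genes called (0.89% higher and 1.1% lower). The text names, from a rule, the 20 largest called rises and falls with non-overlapping arrays, up to 4 called members of each list (or, where fewer were called, those with the smallest unadjusted p, as values), the 15 brightest called genes, the 5 largest non-coding rises and falls, the 10 genes of smallest interaction p, and the markers COL1A1, COL1A2 and THY1. ER stress and autophagy genes and uncertain paralogs were left out, except HSD17B7P2. The rule was not followed in full, as some lists have more than 4 called members named and many have fewer than 4 genes named. HMGCS1 and MSMO1 (large rises that did not pass) and LMOD1 and PMVK (the exceptions of their lists) were named outside the rule. CXCL8, IL6, VIM, ACTA2 and defining markers of other cell types were likewise named outside it, as levels, after their values were seen. Alternatives were median centring, quantile normalization, a filter on dim clusters, a replicate block, trend and robust variances, WPMY-1 by itself, the t-test the methods name, a fit on 1 cluster per gene, other choices among a gene's clusters, linear means, and 8 fits that each left out 1 array, in which a lone array of a group is taken to vary as the other groups do. Cyclic loess was added after seeing the data. Promoters and mature microRNAs came from RefSeq tables on GRCh38.p14. matplotlib 3.10.9 and Python 3.11.15 made the figures.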

Additional observations from a re-analysis of the deposited data

Results flagged for a closer look

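The change with RWF differed between the lines by the interaction test for 2 genes. LY96 had a log2 interaction of 1.46 (the WPMY-1 change less the BPH-1 change, adjusted p = 0.0455), with all 4 WPMY-1 arrays separated by treatment. CXADR had an interaction of 1.50 (adjusted p = 0.0455), with its WPMY-1 arrays separated likewise. Every gene called in WPMY-1 had arrays so separated. LY96 encodes a co-receptor of lipopolysaccharide and CXADR a junction protein, and both stood higher in RWF-treated WPMY-1 cells on each array. Over the alternatives the interaction kept its sign and ran from 1.38 to 1.54 for LY96 and from 1.40 to 1.60 for CXADR, with adjusted p from 0.0109 to 0.285 for each. Groups of 2 arrays are too small for a test of a single outlying array.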

How the results depend on the processing

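Genes called in WPMY-1 (448) numbered 917 with dim clusters left out, 1350 with limma refitted on 1 cluster per gene and 1365 on the mean of a gene's clusters, all 3 from a smaller table, 83 with WPMY-1 fitted alone, and 0 by the methods' t-test after Benjamini-Hochberg (2942 at an unadjusted p under 0.05). Over the fits without 1 array they ran from 63 to 359. The replicate block gave 478, of which 327 were shared; deviations of same-numbered arrays correlated at -0.0256 in WPMY-1 and 0.125 in BPH-1, and with 2 pairs a line the numbers were not taken as pairs. Quantile normalization gave 381, median centring 488, and cyclic loess, chosen after seeing the data, 351.

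Genes differing between the lines (2) numbered 0 under quantile normalization, median centring, cyclic loess, trend and robust variances and the replicate block, 25 with 1 cluster per gene, and 0 to 4 without 1 array. By limma at an unadjusted p under 0.05 the alternatives gave 1079 to 2454. Genes at least 1.3-fold changed with non-overlapping arrays (1502) ran from 1471 to 2337 without 1 array, the highest without vehicle replicate 2. The causes were not tested. Among the genes named, PMVK, which was not called, ran from -0.224 to 0.0586 without 1 array, above 0 without vehicle replicate 2 and without RWF replicate 1 (0.0333).

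Limits are the 2 arrays of each group, which the labels do not call separate cultures, 1 line per cell type, 1 dose and 1 time, unchecked sharing of probes between paralogs or pseudogenes, and dim loci that cannot be told from background.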
